A study of Homo sapiens with 18 samples.

Results

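H1650 cells labelled Tr-BrM S100A9-inh were compared with H1650 cells labelled BrM control, to describe which transcripts still differed from the BrM state in cells labelled as S100A9-inhibited. The 6 libraries were chosen by their labels from 18 in the series, 3 in each group. H1650 is a human lung adenocarcinoma line with an activating EGFR mutation, and PC9 is the other such line in the series. Each line also has a Tr-BrM control group, again of 3 libraries, and the labels give no treatment beyond the word control for either control group. The series concerns brain metastasis, and all groups carry the BrM label. The meaning of BrM and Tr, the agent that inhibited S100A9 and whether the cells are 1 clone were not given by the sources used here. Because the groups compared differ in both Tr and S100A9-inh, the effects of these labels cannot be told apart in this comparison. The Tr-BrM controls are given beside it for part of the genes and lists. "Under S100A9-inh" names the group and not a cause.

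S100A9 is a small calcium-binding protein. With S100A8 it makes up calprotectin, which is released by myeloid cells and by some epithelial tumours. Outside the cell it binds pattern-recognition receptors such as AGER and TLR4, which signal through MYD88 to NF-kappaB and its cytokine targets. ALDH1A enzymes make retinoic acid, which acts on transcription through RAR and RXR receptors, and EGFR inhibitors are the standard treatment of EGFR-mutant lung cancer.

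Total counts were 17.40 to 27.11 M per H1650 library, and 17937 of 60558 gene identifiers had enough counts to be tested. Levels are CPM, counts scaled to a common library total with TMM factors, and changes are log2 fold changes of S100A9-inh minus BrM control ± standard error (SE), n = 3 against 3 unless another contrast is named. "Rose" and "fell" mean an adjusted p below 0.05 in edgeR's quasi-likelihood test over all 17937 genes, which also gave every adjusted p below. By that rule 11416 genes (63.6%) differed, 5827 higher (32.5%) and 5589 lower (31.2%). Every count of list members against BrM below is to be read beside these 2 directional shares. With an absolute log2 change of at least 1 as well, 2231 were higher (12.4%) and 1274 lower (7.10%). The replicates of the 2 groups did not overlap in 66.7% of tested genes, and the median change over all of them was 0.00. Against the Tr-BrM controls, 29.2% of the genes differed under S100A9-inh, 15.4% higher and 13.8% lower. On the first principal component, with 78.6% of the variance, the BrM libraries lay at -91.4 to -90.3, the S100A9-inh libraries at 42.2 to 42.3 and the Tr-BrM controls at 47.6 to 49.2. Epithelial carcinoma markers were present in all groups, with a summed level of 10809 to 10881 CPM in the BrM controls and 8812 to 9158 CPM under S100A9-inh. NKX2-1, NAPSA and SFTPB, lung adenocarcinoma markers on the same list, were too low to be tested.

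S100A9 (ENSG00000163220, GRCh38 chromosome 1, 153357854 to 153361027, forward strand) stood at 217, 206 and 199 CPM in the BrM controls and at 95.2, 88.2 and 105 CPM under S100A9-inh. Every S100A9-inh library was below every BrM library, and the Tr-BrM controls were higher than both, at 307 ± 25.2 CPM (SD, n = 3). The change from BrM was -1.11 ± 0.0521 (adjusted p = 3.82e-17). The transcript was thus measurable in all 3 libraries labelled S100A9-inh.

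S100A8, its partner in calprotectin (ENSG00000143546, chromosome 1, 153390032 to 153391188, reverse strand), was at 25.4, 24.7 and 23.8 CPM in the BrM controls and at 42.8, 44.7 and 44.2 CPM under S100A9-inh. The groups did not overlap and S100A8 was the higher in S100A9-inh, by 0.83 ± 0.0611 (adjusted p = 1.19e-12), while the Tr-BrM controls were at 112 ± 9.93 CPM (SD, n = 3). The calprotectin partners therefore differed from BrM in opposite directions. Of 10 calprotectin genes and receptors, 3 rose, 5 fell and 2 did not pass the test, with a median of -0.35. Among all tested genes 32.5% rose and 31.2% fell.

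AGER, the receptor for advanced glycation end products, rose from 5.69, 6.69 and 6.92 CPM to 22.3, 24.1 and 24.4 CPM, a change of 1.88 ± 0.0861. CD36, a scavenger receptor and fatty acid carrier that binds calprotectin, rose by 3.28 ± 0.226 from a mean of 0.509 CPM. The adhesion molecules ALCAM and MCAM, which also bind S100 proteins, fell by 1.74 and 1.60 on the log2 scale. The immunoglobulin-family receptors BSG and NPTN changed by -0.45 and -0.43. The values of MYD88 were 95.7, 92.6 and 91.9 CPM against 88.4, 96.9 and 90.1 CPM, which overlap. TLR4 stayed at or below 0.734 CPM in both groups, a level at which a difference could hardly be detected.

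**Figure D1:**
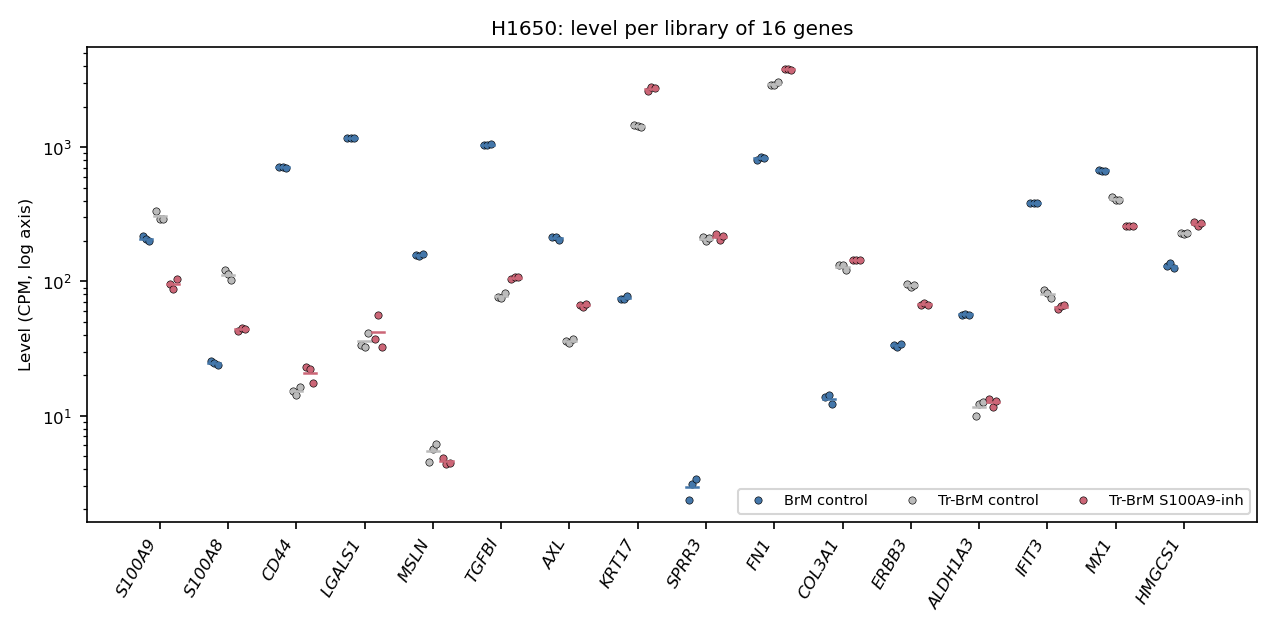
Levels of 16 genes in the 9 H1650 libraries, in CPM on a log axis. Points are libraries and short lines are group means of 3; S100A9 under S100A9-inh lies below both control groups, while CD44 and KRT17 lie far from the BrM controls in both Tr-BrM groups.

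Retinoic acid genes split evenly. Of 22 tested genes, 9 rose and 9 fell, with a median of 0.06, beside 32.5% higher and 31.2% lower among all tested genes. ALDH1A3, a retinaldehyde dehydrogenase, was at 56.6, 57.3 and 56.4 CPM in BrM and at 13.2, 11.6 and 12.8 CPM under S100A9-inh, a change of -2.18 ± 0.0666 (adjusted p = 1.49e-21). ALDH1A1 moved the other way, from 0.361, 0.364 and 0.591 CPM to 2.75, 1.86 and 2.95 CPM, or 2.55 ± 0.270 (adjusted p = 2.40e-09). No library of one group overlapped the other for either enzyme, which also held for 66.7% of all tested genes. CRABP2, which carries retinoic acid to nuclear receptors, fell from a mean of 1238 CPM to 215 CPM, a change of -2.53 ± 0.0375. The receptor RARG fell from 141, 135 and 134 CPM to 56.0, 57.9 and 55.0 CPM, and its dimer partner RXRA rose by 0.65 ± 0.0346. CRABP1 had 2 counts over the BrM group and 91 under S100A9-inh, a ratio of 36.1 with a 95% counting interval of 9.70 to 302.

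The largest falls at 5 CPM or more were led by CASP14, a caspase of cornified epithelium, whose level went from 71.6, 72.2 and 71.5 CPM to 0.220, 0.211 and 0.383 CPM. Its change was -8.01 ± 0.204 (adjusted p = 1.99e-23). VEGFC, the growth factor of lymphatic vessels, was at 10.4 to 13.8 CPM in the BrM libraries and at 0.110 to 0.295 CPM under S100A9-inh, a change of -6.06 ± 0.272. IL20RB, a subunit of receptors for the interleukin-20 family, fell by 5.57 on the log2 scale, and the zinc-finger repressor TRPS1 by 5.56. The other members of the 10 largest falls were NWD1, HPDL, FAXDC2, ADAMTS16, MSLNL and SLC25A48, with changes from -6.19 to -5.40. Levels were low in the Tr-BrM controls too, with means of 0.915 CPM for CASP14, 0.122 CPM for VEGFC, 1.31 CPM for IL20RB and 0.850 CPM for TRPS1. Of the 10, CASP14 alone passed the test against the Tr-BrM controls, at -1.89.

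Among the largest rises, INSL4, a relaxin-family peptide of the placenta, had no count in the BrM controls and was at 4.74, 5.15 and 5.94 CPM under S100A9-inh. With the BrM group set to a floor of 3 counts in all, it was at least 107-fold higher. ERBB4, a receptor of the EGFR family that binds neuregulins, had 1 count in BrM and 498 under S100A9-inh, a ratio of 395 with a 95% counting interval of 70.5 to 15617. EDIL3, a secreted integrin ligand, rose from 0 to 0.182 CPM per library to 35.2, 35.4 and 35.2 CPM, a change of 8.20 ± 0.180. FAT2, an atypical cadherin of squamous epithelia, rose by 7.37 ± 0.0792 and the endocytic receptor LRP2 by 7.24 ± 0.119. SERPINB13, a protease inhibitor of squamous epithelium, rose by 7.72 ± 0.247. ANKFN1, EPHA3 and ACADL started from 2 or 3 counts, with ratios of 423 (145 to 2054), 177 (48.7 to 1467) and 136 (46.3 to 662), the 95% counting intervals in parentheses. TACR3, a neurokinin receptor, completed the 10 at 6.91 ± 0.225. Means in the Tr-BrM controls were 6.21 CPM for INSL4, 4.74 CPM for ERBB4, 22.2 CPM for EDIL3, 172 CPM for FAT2 and 68.2 CPM for LRP2. Against these controls LRP2 and SERPINB13 were lower under S100A9-inh, INSL4 and FAT2 did not pass the test, and the other members were higher.

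Among genes at 100 CPM or more, the 8 largest falls included surface and matrix genes. CD44, the hyaluronan receptor (ENSG00000026508, chromosome 11, 35138870 to 35232402, forward strand), had 712, 706 and 702 CPM in the BrM controls. It had 23.0, 22.2 and 17.6 CPM under S100A9-inh, a change of -5.08 ± 0.0532 (adjusted p = 4.25e-32), and the Tr-BrM controls were at 15.3 CPM. LGALS1, the secreted lectin galectin-1, fell from 1173, 1167 and 1163 CPM to 36.9, 56.4 and 32.7 CPM, or by 4.81 on the log2 scale. LOXL2, which cross-links collagen, fell from 189, 194 and 197 CPM to 8.19, 8.02 and 8.66 CPM. In the Tr-BrM controls the means were 35.8 CPM for LGALS1 and 4.43 CPM for LOXL2. The mesothelial surface protein MSLN and the vault protein MVP fell by 5.11 and 4.23 on the log2 scale, and both lie on chromosome 16, which is described below. SYT12, FAM83A and EMP3 completed the 8 largest falls at this level, at -4.87, -4.30 and -3.92.

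Mesenchymal genes moved in both directions, 14 higher and 18 lower of 35, with a median of -0.33. Of all tested genes 32.5% were higher and 31.2% lower. TGFBI, a matrix protein induced by TGF-beta, went from 1037, 1044 and 1057 CPM to 104, 107 and 107 CPM, a change of -3.30 ± 0.0341 (adjusted p = 4.25e-32). Its mean in the Tr-BrM controls was 77.3 CPM. SPARC, a collagen-binding matrix protein, fell by 3.11 on the log2 scale from 353 to 363 CPM, and FBN1, the fibrillin-1 gene, fell by 2.48. The transcription factors TWIST1 and SNAI1 fell by 2.44 and 1.36. In contrast FN1, fibronectin (ENSG00000115414, chromosome 2, 215360440 to 215436172, reverse strand), rose from 804, 839 and 832 CPM to 3797, 3854 and 3730 CPM, a change of 2.20 ± 0.0292. The transcription factors ZEB2 and SNAI2 rose by 3.14 ± 0.205 and 1.91 ± 0.135, and CDH2, N-cadherin, by 1.92 ± 0.161. VIM, the intermediate filament of mesenchymal cells, fell by 0.26 on the log2 scale, so the list held genes of one role on both sides. Against the Tr-BrM controls 19 of the 35 genes were higher under S100A9-inh and 2 lower, where 15.4% and 13.8% of all tested genes were.

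Among collagens 12 rose and 9 fell of 23, with a median of 0.31. COL3A1, a fibrillar collagen, rose from 13.8, 14.2 and 12.2 CPM to 144 CPM in each of the 3 S100A9-inh libraries, a change of 3.41 ± 0.0523. Its mean in the Tr-BrM controls was 129 CPM. COL4A4 rose by 3.68 ± 0.108 and COL12A1 by 1.67 ± 0.0354, while COL17A1, the hemidesmosome collagen, fell by 0.56. Of 27 integrin and laminin genes, 12 rose and 7 fell, or 44.4% and 25.9%, beside 32.5% and 31.2% of all tested genes. The fibronectin receptor subunits diverged, ITGA5 at -1.73 ± 0.0567 and ITGB1 at 0.92 ± 0.0258. ITGA3, a laminin receptor subunit, fell from 850, 861 and 852 CPM to 371, 378 and 366 CPM.

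Of 26 tested squamous and basal genes, 17 rose and 5 fell, with a median of 1.52, beside 32.5% and 31.2% of all tested genes. KRT17, a stress-associated basal keratin (ENSG00000128422, chromosome 17, 41619441 to 41624842, reverse strand), was at 74.3, 74.0 and 77.9 CPM in BrM and at 2617, 2805 and 2739 CPM under S100A9-inh. The change was 5.17 ± 0.0373 (adjusted p = 5.10e-36), and the Tr-BrM controls lay between the groups at 1445 ± 30.9 CPM (SD, n = 3). SPRR3, a cornified-envelope protein, rose from 2.35, 3.09 and 3.37 CPM to 225, 204 and 219 CPM, a change of 6.22 ± 0.0716. Its mean in the Tr-BrM controls was 208 CPM. KRT6A, whose reads can be split with near-identical keratins and is therefore uncertain, was higher by 2.49 ± 0.0364, and TRIM29 rose by 1.91 ± 0.0336. The basal regulators TP63 and SOX2 rose by 3.17 ± 0.222 and 2.20 ± 0.195 from means of 0.526 and 1.24 CPM. DSG3, a desmosomal cadherin of stratified epithelium, went against the list with a change of -2.83 ± 0.0512, as did CASP14. IL36RN, which antagonises interleukin-36, rose from 4.25, 3.96 and 4.14 CPM to 109, 105 and 108 CPM.

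Other large rises at 100 CPM or more were spread over several functions. KIF1A, a kinesin of axonal transport, rose by 4.36 ± 0.0753, the alpha-2A adrenergic receptor ADRA2A by 4.10 ± 0.0604, and the teneurin TENM3 by 3.78 ± 0.0493. AMOT, an angiomotin of the Hippo pathway, rose from 8.08, 7.87 and 7.63 CPM to 118, 113 and 120 CPM.

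Epithelial adhesion and fate genes were 20 higher and 9 lower of 35, with a median of 0.35. CDH3, P-cadherin, fell from 734, 734 and 737 CPM to 98.2, 111 and 108 CPM and lies on chromosome 16, while CDH1, E-cadherin, changed by -0.12. CLDN1, a tight-junction protein, rose by 2.02 ± 0.0366 and the epithelial factor GRHL3 by 2.39 ± 0.0808. ELF5, an epithelial transcription factor, had no count in BrM and was at least 91.7-fold higher under S100A9-inh, against the same floor. Of 14 tested alveolar and airway genes 8 rose and 4 fell. The mucins went opposite ways, MUC16 at 4.06 ± 0.0995 and MUC1 at -2.59 ± 0.102.

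**Figure D2:**
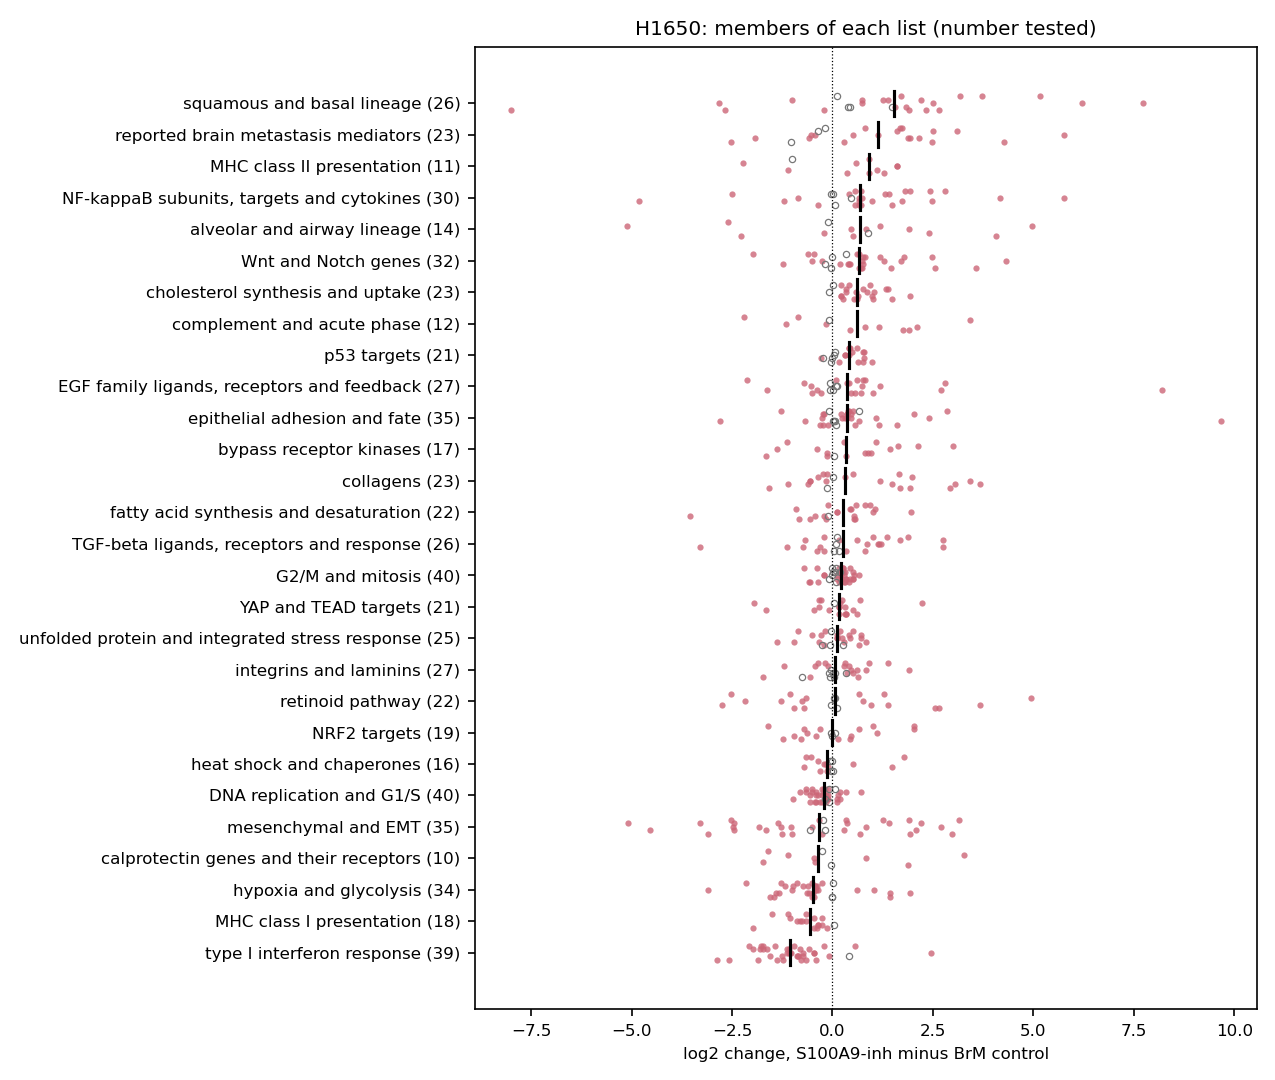
Changes of the tested members of each pathway or lineage list in H1650, S100A9-inh minus BrM control, on a log2 axis. Points are genes, filled where adjusted p is below 0.05, and black lines are medians; the type I interferon list lies lowest at -1.06 and the squamous list highest at 1.52.

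Interferon-stimulated genes, the antiviral programme switched on by interferon receptors, were lower almost throughout. Of 39 tested, 36 fell, 2 rose and 1 did not pass the test, with a median of -1.06, beside 31.2% lower among all tested genes. The replicates of the groups did not overlap in 38 of them, beside 66.7% of all tested genes. The promoters of leading genes are shown because the factors of this pathway bind interferon-stimulated response elements there. The sequences are from RefSeq on GRCh38.p14, the 250 bases before a listed start, 5′ to 3′ on the gene's strand. Capitals mark matches to the response-element-like pattern GAAANNGAA on either strand. IFIT1 and IFIT3 were among the 4 members with the smallest p, and EPSTI1 was 1 of the 2 that rose. The windows are chr10:89392373-89392622 on the forward strand for IFIT1, chr10:89332279-89332528 on the forward strand for IFIT3, at the second of its 2 listed starts (the other window holds 2 matches), and chr13:42992242-42992491 on the reverse strand for EPSTI1.
IFIT1: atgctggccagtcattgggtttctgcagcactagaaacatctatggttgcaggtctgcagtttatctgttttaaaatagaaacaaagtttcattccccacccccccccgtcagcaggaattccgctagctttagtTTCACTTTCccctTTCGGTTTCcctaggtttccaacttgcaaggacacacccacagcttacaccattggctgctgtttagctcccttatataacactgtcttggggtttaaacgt
IFIT3: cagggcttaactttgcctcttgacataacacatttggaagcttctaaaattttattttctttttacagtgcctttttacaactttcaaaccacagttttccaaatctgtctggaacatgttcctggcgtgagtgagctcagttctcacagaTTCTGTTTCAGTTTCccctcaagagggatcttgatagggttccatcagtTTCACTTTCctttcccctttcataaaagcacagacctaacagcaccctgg
EPSTI1: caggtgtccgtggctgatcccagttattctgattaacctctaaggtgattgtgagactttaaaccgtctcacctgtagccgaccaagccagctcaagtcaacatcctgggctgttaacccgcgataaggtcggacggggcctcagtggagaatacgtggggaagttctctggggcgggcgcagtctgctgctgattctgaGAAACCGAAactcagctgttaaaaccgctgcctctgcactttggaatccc
The pattern was in 20 of 32 list genes with a window and in 7.65% of the 12248 tested genes with one, or 6.88% of all 35116 windows of this length. The 3 matches in the IFIT3 window include 2 that overlap each other. A match describes letters in a window and is not a measured binding site.

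OASL, a dsRNA-induced oligoadenylate synthetase-like protein, fell from 278, 285 and 288 CPM to 36.0, 40.8 and 38.9 CPM, a change of -2.88 ± 0.0452 (adjusted p = 2.57e-28). IFIT3, an adaptor of the IFIT antiviral complex, fell from 384, 386 and 381 CPM to 61.8, 66.0 and 66.6 CPM, and IFIT1, which binds foreign RNA ends, from 454, 449 and 455 CPM to 111, 117 and 118 CPM. The IFIT genes were therefore lower in each of the 3 S100A9-inh libraries, IFIT3 by 2.57 ± 0.0404 and IFIT1 by 1.97 ± 0.0402 in size. MX1, a dynamin-like restriction factor, was at 682, 668 and 670 CPM against 257, 260 and 258 CPM. EPSTI1 rose by 0.55 ± 0.0602. IRF7, the inducible regulator of interferon genes, rose by 2.46 ± 0.418 at levels of at most 1.48 CPM, and MX2, at at most 2.87 CPM, did not pass the test.

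The Tr-BrM controls did not mark the lowest level of this programme. Against them, 32 of the 39 genes were lower under S100A9-inh and 0 higher, beside 13.8% lower among all tested genes. OASL and IFIT2 did not pass in that contrast, at -0.09 and 0.04 (adjusted p = 0.235 and 0.473). IFI44L, an interferon-induced protein, was at 57.7, 58.5 and 52.8 CPM in BrM, at a mean of 34.0 CPM in the Tr-BrM controls and at 15.9, 15.9 and 15.2 CPM under S100A9-inh. Its change was -1.85 ± 0.0644 from BrM and -1.12 from the Tr-BrM controls.

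Genes of MHC class I presentation were lower in 17 of 18, higher in 0, with a median of -0.56. NLRC5, the transactivator of these genes, fell from 43.6, 43.3 and 39.6 CPM to 10.9, 11.2 and 10.2 CPM, a change of -1.98 ± 0.0677, and it lies on chromosome 16. Without the 2 members on that chromosome the median was -0.45. The immunoproteasome subunits PSMB9 and PSMB8 fell by 1.11 and 1.06 on the log2 scale, and ERAP2, which trims peptides, by 1.51. HLA-C was at 798, 801 and 792 CPM against 491, 513 and 495 CPM, a value that is uncertain because HLA genes share sequence.

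MHC class II genes, which professional antigen-presenting cells use, were 8 higher and 2 lower of 11, with a median of 0.92, at low levels. HLA-DRB1 went from 0.813, 1.64 and 1.60 CPM to 3.63, 4.43 and 1.73 CPM, and CTSS, a protease of that route, from 0.994, 1.68 and 1.54 CPM to 3.89, 4.56 and 4.26 CPM. CIITA, the regulator of the class, went the other way, from a mean of 2.42 CPM to 1.12 CPM, and lies on chromosome 16, where most genes were lower. Beside these, 11 of 13 tested markers of microglia and other myeloid cells rose and 1 fell, out of 17 listed. Their summed level was 100 to 105 CPM in BrM and 129 to 154 CPM under S100A9-inh. PTPRC, the leukocyte antigen CD45, rose from 1.22, 1.59 and 1.18 CPM to 4.81, 4.60 and 3.76 CPM, and CD163, a macrophage receptor, by 1.38 ± 0.185. CD14, the marker that fell, was at 2.66, 3.37 and 3.61 CPM against 1.98, 3.37 and 1.15 CPM, a change of -0.57 ± 0.243. The part of other cells in the class II values was not tested, and in bulk RNA fewer cells of a type and less RNA per cell cannot be told apart.

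The NF-kappaB list of subunits, targets and cytokines was 21 higher and 5 lower of 30, with a median of 0.69. The subunit genes NFKB2 and RELB rose by 0.70 ± 0.0333 and 0.57 ± 0.0542, from 142, 147 and 146 CPM to 228, 240 and 240 CPM in the case of NFKB2. NFKB1, RELA and the inhibitor NFKBIA did not pass the test, at 0.02, -0.04 and 0.07. PTGS2, which encodes cyclooxygenase-2 and makes prostaglandins, rose from 0.361, 0.728 and 1.06 CPM to 39.8, 34.8 and 37.5 CPM, a change of 5.75 ± 0.139. Its mean in the Tr-BrM controls was 22.8 CPM. ICAM1, an endothelial and epithelial ligand of leukocyte integrins, rose from 5.15, 5.82 and 6.45 CPM to 33.0, 30.9 and 32.2 CPM. The chemokine CXCL8 rose by 1.49 ± 0.187 and the cytokine IL1A by 4.16, from a mean of 0.194 CPM.

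Exceptions on that list were CCL5, a chemokine also induced by interferon, which fell from 90.7, 91.8 and 90.7 CPM to 16.2, 15.1 and 17.2 CPM, and LCN2, an iron-scavenging lipocalin, at -4.81 ± 0.133. IL6 fell by 0.37 on the log2 scale. Against the Tr-BrM controls 24 of the 30 genes were higher under S100A9-inh and 1 lower, beside 15.4% higher among all genes in that contrast. The summed level of lymphocyte markers was 2.68 to 3.43 CPM in BrM and 7.09 to 8.28 CPM under S100A9-inh, with 2 of 4 tested markers higher, and its part in these values was not tested.

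Cholesterol synthesis and uptake genes rose in 21 of 23, with 0 lower, 2 not passing the test and a median of 0.62. These genes are driven by SREBP2, which acts together with the CCAAT-binding factor NF-Y at their promoters, and the RefSeq windows of HMGCS1 and MVK are shown for that reason. HMGCS1 makes the precursor of mevalonate and MVK phosphorylates mevalonate. Capitals mark CCAAT or its reverse complement ATTGG. The windows are chr5:43313413-43313662 on the reverse strand for HMGCS1, at the outer of its 2 listed starts (the window of the inner start holds 0 matches), and chr12:109573544-109573793 on the forward strand for MVK.
HMGCS1: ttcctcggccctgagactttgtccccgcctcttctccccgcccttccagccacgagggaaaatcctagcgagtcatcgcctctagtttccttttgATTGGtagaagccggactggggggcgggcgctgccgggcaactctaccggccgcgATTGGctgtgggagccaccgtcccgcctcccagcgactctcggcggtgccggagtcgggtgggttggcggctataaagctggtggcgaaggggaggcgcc
MVK: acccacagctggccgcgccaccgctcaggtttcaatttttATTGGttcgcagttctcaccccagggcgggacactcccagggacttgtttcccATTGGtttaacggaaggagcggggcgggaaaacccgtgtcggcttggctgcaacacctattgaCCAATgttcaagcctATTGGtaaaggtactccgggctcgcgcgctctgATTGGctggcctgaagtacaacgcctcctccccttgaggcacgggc
CCAAT was in 16 of 18 list genes with a window, in 40.6% of the 12248 tested genes with one and in 32.0% of all windows of this length.

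HMGCS1 was at 131, 136 and 126 CPM in the BrM controls and at 278, 257 and 273 CPM under S100A9-inh, a change of 1.04 ± 0.0359 (adjusted p = 2.61e-20). MVK rose from 28.4, 26.7 and 25.8 CPM to 76.8, 74.5 and 74.3 CPM, or by 1.47 ± 0.0484. Both were separated between the groups without overlap, as were 66.7% of all tested genes. STARD4, a cholesterol carrier, rose by 1.93 ± 0.0721 and the squalene epoxidase SQLE by 0.94 ± 0.0329. Under S100A9-inh 10 of the 23 were higher than in the Tr-BrM controls and 3 lower, with a median difference of 0.10. In that contrast 15.4% of all tested genes were higher and 13.8% lower.

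Fatty acid genes were 13 higher and 8 lower of 22. SCD, the stearoyl-CoA desaturase, rose from 375, 376 and 362 CPM to 721, 697 and 704 CPM, and the fatty acid chaperone FABP5 rose by 1.96 ± 0.0618. The lipid-droplet coat protein PLIN2 fell by 0.91 on the log2 scale and the acyl-CoA synthetase ACSL5 by 3.55. Hypoxia and glycolysis genes were lower in 26 of 34 and higher in 5, with a median of -0.49. Against the Tr-BrM controls 16 of the 34 were higher under S100A9-inh and 5 lower, with a median of 0.13. In that contrast 15.4% of all tested genes were higher and 13.8% lower. The lactate exporter SLC16A3 fell from 355, 359 and 369 CPM to 82.9, 83.8 and 75.3 CPM, a change of -2.16 ± 0.0397, and the glucose transporter SLC2A1 by 1.56. Its neuronal-type relative SLC2A3 rose from 39.7, 40.1 and 43.4 CPM to 157, 156 and 155 CPM. The glycolytic enzymes PKM, GAPDH and LDHA changed by -0.99, -0.64 and -0.49.

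Cell-cycle lists moved by small amounts and in different directions. Of 40 genes of DNA replication and G1/S, 29 fell and 7 rose, with a median of -0.20. MCM10, which helps to fire replication origins, fell from 60.3, 62.0 and 59.1 CPM to 30.2, 31.3 and 30.6 CPM. Of 40 genes of G2/M and mitosis, 25 rose and 7 fell, with a median of 0.21. The mitotic kinase AURKA rose from 214, 212 and 206 CPM to 332, 341 and 335 CPM, while CDK1, the kinase that drives mitotic entry, fell by 0.70 on the log2 scale. Against the Tr-BrM controls 30 of these 40 were lower under S100A9-inh and 0 higher, beside 13.8% of all genes lower, so that AURKA lay between the control groups.

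Targets of p53 were 15 higher and 1 lower of 21, with a median of 0.41. CDKN1A, the cell-cycle inhibitor p21, rose from 352, 362 and 359 CPM to 464, 489 and 475 CPM, and the p53 ubiquitin ligase MDM2 by 0.62 ± 0.0595. BAX, which permeabilises mitochondria, fell by 0.28. Heat shock genes were 3 higher and 9 lower of 16. HSPB1 fell from a mean of 2792 CPM to 1710 CPM and HSPA4 by 0.36 on the log2 scale, while HSPA4L rose by 1.79 ± 0.0732. Stress-response genes of the unfolded protein and integrated responses were 13 higher and 8 lower of 25, among them DDIT4, an inhibitor of mTORC1, at -1.39 ± 0.0398. Targets of the antioxidant factor NRF2 were 8 higher and 8 lower of 19, and NQO1, on chromosome 16, fell by 1.23. Among all tested genes 32.5% were higher and 31.2% lower.

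Complement and acute-phase genes were 7 higher and 4 lower of 12, where 32.5% of all tested genes were higher and 31.2% lower. Nuclear genes of oxidative phosphorylation were 14 higher and 35 lower of 88, and those of the mitochondrial genome 8 higher and 3 lower of 13. Cytosolic ribosomal protein genes were 21 higher and 28 lower of 78, with a median of -0.01 whose sign depends on the scaling. Their shares, 26.9% and 35.9%, lie near those of all tested genes.

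EGFR itself was at 478, 476 and 459 CPM in the BrM controls and at 358, 360 and 368 CPM under S100A9-inh, a change of -0.38 ± 0.0315 (adjusted p = 1.52e-11). Of 27 genes of the EGF family and its feedback, 15 rose and 7 fell. ERBB3, the kinase-impaired partner of ERBB2, rose from 33.6, 32.3 and 34.1 CPM to 66.8, 68.6 and 66.4 CPM. NRG1, its ligand, fell from 21.6, 22.4 and 22.5 CPM to 6.02, 4.98 and 4.22 CPM. The EGFR ligand BTC rose by 2.69 ± 0.106.

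Several ligands were closer to BrM than the Tr-BrM controls were. EGF had means of 18.2 CPM in BrM, 4.26 CPM for the Tr-BrM controls and 15.0 CPM under S100A9-inh. The S100A9-inh level was lower than that of BrM by 0.29 on the log2 scale. TGFA was at 200, 191 and 184 CPM in BrM and at 184, 179 and 188 CPM under S100A9-inh, against 95.7 to 99.5 CPM in the Tr-BrM controls, and its difference from BrM did not pass the test (adjusted p = 0.116). HBEGF was at 65.3, 63.5 and 62.5 CPM in BrM and at 43.1, 44.0 and 45.7 CPM under S100A9-inh, against 16.6 to 19.7 CPM in the Tr-BrM controls, lower than BrM by 0.53 on the log2 scale. These 3 were picked after their values were seen.

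Receptor kinases that can signal in place of EGFR were 10 higher and 6 lower of 17. AXL fell from 214, 213 and 204 CPM to 66.6, 64.6 and 68.4 CPM, with the Tr-BrM controls at 35.8 CPM. FGFR1 fell by 1.39 on the log2 scale while FGFR2 rose from 53.3, 56.9 and 57.3 CPM to 172, 174 and 174 CPM. KIT, the stem cell factor receptor, rose by 3.01 ± 0.0754. MET changed by -0.13.

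Genes reported as mediators of brain metastasis were 15 higher and 5 lower of 23, with a median of 1.14. The astrocyte-contact genes PCDH7 and GJA1, which build junctions between tumour cells and astrocytes, rose from 18.6, 18.5 and 17.9 CPM to 98.2, 109 and 105 CPM and from 1.58, 1.91 and 2.66 CPM to 39.0, 37.2 and 39.4 CPM. The sialyltransferase ST6GALNAC5 fell by 1.92 on the log2 scale and ANGPTL4, which loosens endothelial junctions, by 2.52. Beside these, 9 of 12 astrocyte markers rose and 1 fell, with a summed level of 329 to 341 CPM in BrM, 705 to 730 CPM in the Tr-BrM controls and 508 to 561 CPM under S100A9-inh. GFAP, the astrocyte filament, was at 14.8, 7.14 and 4.14 CPM against 39.8, 31.3 and 24.2 CPM. ALDH1L1, the marker that fell, was at 1.90, 2.77 and 3.31 CPM against 0.844, 0.591 and 0.728 CPM. SLC1A3 on this list rose from a mean of 23.4 CPM to 141 CPM, and in PC9 from 15.1 CPM to 34.1 CPM. The part of astrocyte RNA in the values of this group was not tested.

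Among signalling lists, TGF-beta genes were 14 higher and 8 lower of 26. BAMBI, a decoy receptor, rose from 29.9, 29.9 and 30.8 CPM to 196, 208 and 203 CPM, and BMP7 by 1.88 ± 0.0360, while the inhibitor SMAD6 fell by 1.13. Targets of YAP and TEAD were 13 higher and 7 lower of 21. The secreted proteins CCN2 and CCN1 fell by 1.95 and 0.33 on the log2 scale, and ANKRD1, a nuclear ankyrin protein, rose from 18.8, 19.9 and 17.4 CPM to 92.1, 87.3 and 87.1 CPM. Against the Tr-BrM controls 16 of the 21 were higher under S100A9-inh and 1 lower, beside 15.4% and 13.8% of all tested genes. Wnt and Notch genes were 22 higher and 6 lower of 32, with a median of 0.66. The ligand WNT10A rose by 4.31 ± 0.150, the secreted antagonist SFRP1 by 3.56 ± 0.119 and the receptor NOTCH3 by 0.73 ± 0.0371, while the effector TCF7 fell by 1.22.

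Some genes differed from both control groups in one direction, and the leading ones each way are given. IL32, a proinflammatory cytokine (ENSG00000008517), was at 2.44, 2.50 and 2.48 CPM in BrM, at 3.42 CPM in the Tr-BrM controls and at 12.2, 13.8 and 14.1 CPM under S100A9-inh. DACT1, a Wnt modulator, rose from BrM by 3.61 ± 0.160 and stood 1.77 above the Tr-BrM controls, and ODAPH by 2.93 ± 0.112 and 1.52. TYRP1 and MPO were higher by the test but with wide spreads, TYRP1 at 1.04, 0.910 and 4.44 CPM against 4.41, 13.1 and 16.6 CPM. The groups overlap for TYRP1, and with DESeq2 its adjusted p was 0.0531. MPO was at 5.37, 4.55 and 9.05 CPM in BrM and at 16.7, 30.8 and 19.2 CPM under S100A9-inh. It overlaps the Tr-BrM controls, of which 1 library was at 20.9 CPM and the others at 0.156 and 0.110 CPM. CASP14, CAPS, CYP4F12, ARHGEF19 and IFI44L were lower than in both control groups, although CASP14 overlapped with the Tr-BrM controls, with CAPS at 45.7, 45.3 and 44.7 CPM in BrM, 10.9 CPM in the Tr-BrM controls and at 4.22, 4.56 and 4.79 CPM under S100A9-inh.

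Other genes differed from the Tr-BrM controls and were within 0.2 of BrM on the log2 scale with an adjusted p above 0.05. S1PR1, a receptor of sphingosine phosphate, was at 21.9, 20.6 and 21.5 CPM in BrM, 8.01 CPM in the Tr-BrM controls and at 19.4, 21.0 and 19.5 CPM under S100A9-inh. NFE2L3, IL31RA, IL11 and NAV3 had differences from BrM of 0.00, 0.00, -0.05 and -0.06, and stood 1.03 to 1.16 above the Tr-BrM controls. The inducible chaperone HSPA6 was at 5.65, 3.05 and 3.13 CPM in BrM, 15.6 CPM in the Tr-BrM controls and at 4.22, 4.89 and 3.53 CPM under S100A9-inh. THSD7A, SMPD3, TTLL1 and ANKDD1A were likewise lower than in the Tr-BrM controls, by 1.03, 0.99, 0.74 and 0.74 in size. A p that misses the threshold does not show that these levels equal those of BrM.

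Several lists of markers of other cell types were higher, at levels that ranged widely. Oligodendrocyte markers rose in 7 of 8 tested, with sums of 212 to 219 CPM in BrM and 230 to 247 CPM under S100A9-inh. Endothelial markers rose in 8 of 11, from sums of 13.9 to 15.9 CPM to 22.0 to 29.6 CPM. Fibroblast and pericyte markers rose in 8 of 9, from 31.0 to 33.2 CPM to 188 to 197 CPM, a list that includes COL3A1, and LUM, a proteoglycan of connective tissue, rose from at most 0.182 CPM to 5.78 to 7.82 CPM. The members of these lists that fell were CNP at -0.15 (oligodendrocyte), ERG at -1.88 (endothelial) and FAP at -0.60 (fibroblast and pericyte). The neuron list was 4 higher and 2 lower of 9. Haemoglobin gene HBB, a sign of blood, was at 0.271, 1.41 and 0.651 CPM against 4.04, 2.24 and 1.19 CPM, and HBD and AHSP had no count in any H1650 library. The part of such cells in the rises of low genes was not tested.

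Among tested genes, large changes were more frequent at low levels. Under 1 CPM, as the mean of the 9 H1650 libraries, 24.6% of 3181 genes rose and 10.2% fell with an absolute log2 change of at least 1. From 10 to 30 CPM the shares were 7.80% and 6.87%, and at 100 CPM or more 2.96% and 3.59% of 2227 genes. Rises outnumbered falls most clearly in the classes under 10 CPM. The count filter keeps a gene that is high enough in 1 group alone, and the class mean takes in both Tr-BrM groups. How far the filter and this mean shape the shares was not tested.

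**Figure D3:**
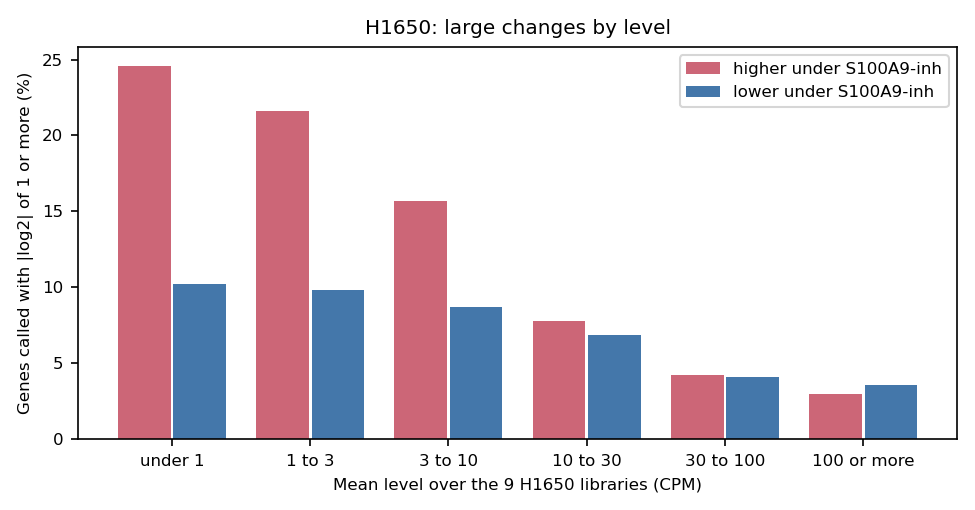
Share of tested H1650 genes called with an absolute log2 change of at least 1, by mean level in CPM. Bars are genes higher or lower under S100A9-inh; the share of rises declines from 24.6% under 1 CPM to 2.96% at 100 CPM or more. A low gene can pass the count filter through 1 group alone.

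Genes on chromosome 16 were lower as a block. Of 811 tested there, 553 fell (68.2%) and 78 rose (9.62%), with a median of -0.60, against 31.2% lower among all tested genes. In the 3 S100A9-inh libraries the median deviation from the BrM mean was -0.55, -0.52 and -0.54, and in the Tr-BrM controls -0.50, -0.52 and -0.51, so all 6 libraries lay far below the BrM controls. The first 40 Mb had 337 of 431 genes lower with a median of -0.90, and the rest 216 of 380 lower with a median of -0.36. MSLN, MVP, MSLNL, CDH3, NLRC5, CIITA, NQO1, ZNF629 and CDYL2 are among the genes there, and IL32 is there too but rose. The ribosomal protein gene RPS2, also on this chromosome, fell from 3297, 3547 and 3596 CPM to 1677, 1614 and 1530 CPM. Without chromosome 16, 5749 of 17126 genes were higher and 5036 lower.

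Other segments stood apart too, with borders set after the values were seen. On chromosome 10 the first 20 Mb had 65 of 88 genes lower with a median of -0.83, and the next 20 Mb had 48 of 73 higher with a median of 1.04. From 40 to 50 Mb 35 of 66 were lower, and beyond 50 Mb, where IFIT1 and IFIT3 lie, the median was 0.10. On chromosome 18 beyond 30 Mb 104 of 159 genes were higher with a median of 0.55, against -0.03 before it. On chromosome 5 beyond 90 Mb 274 of 511 were lower with a median of -0.31, against 0.04 before it, where HMGCS1 lies. The medians of S100A9-inh minus Tr-BrM control in these segments were between -0.06 and 0.11. DNA copy number was not measured, and its part in these differences was not tested.

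**Figure D4:**
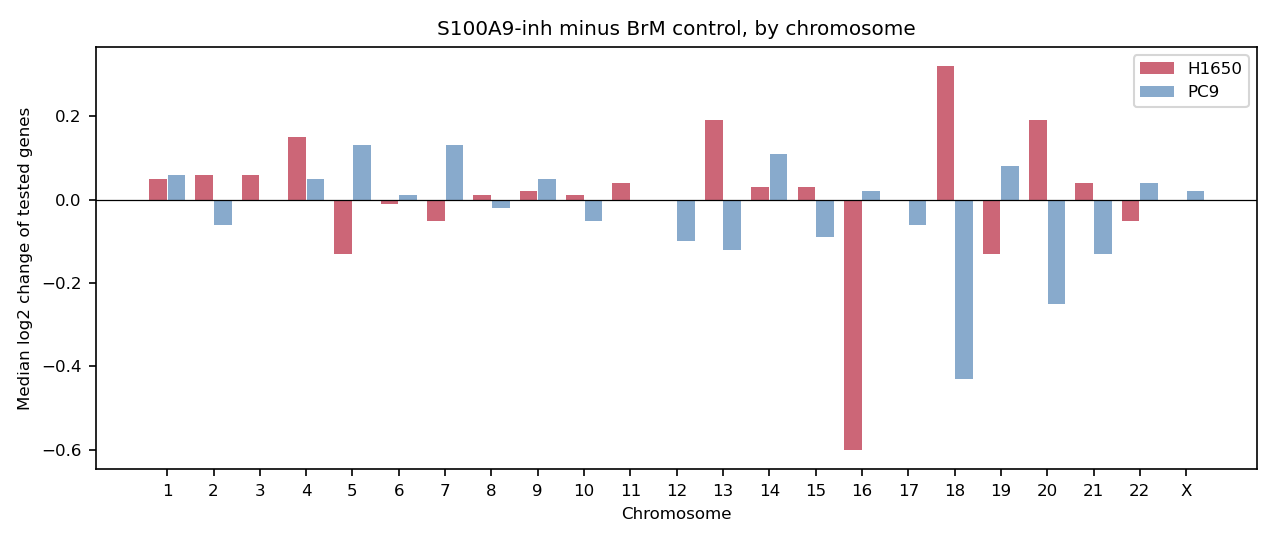
Median log2 change of tested genes on each chromosome, S100A9-inh minus BrM control, in H1650 and in PC9. Bars start at 0; chromosome 16 stands at -0.60 in H1650 and 0.02 in PC9, and chromosome 18 at 0.32 and -0.43.

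Among gene families defined by name, the 28 tested clustered protocadherins lie on chromosome 5, and 217 of 431 tested ZNF genes on chromosome 19. Clustered protocadherins, adhesion proteins encoded in tandem on chromosome 5 beyond 90 Mb, were 18 lower and 2 higher of 28, with a median of -0.78. PCDHGA4 fell from 8.58, 8.55 and 9.94 CPM to 0.477, 0.337 and 0.153 CPM, and its neighbour PCDHB13 from 17.6, 17.9 and 16.7 CPM to 5.54, 4.60 and 5.79 CPM, values that are uncertain because these genes share sequence. Zinc finger genes named ZNF, many of them repressors of repeat elements, were 192 lower and 65 higher of 431. From 20 to 30 Mb on chromosome 19, 29 of 49 genes of any name were lower, with a median of -0.63. Of the ZNF genes on chromosome 19, 122 of 217 were lower with a median of -0.31, and elsewhere 70 of 214 with a median of -0.08. ZNF853 and ZNF711 rose by 2.02 ± 0.0687 and 2.99 ± 0.109, and ZNF114 and ZNF629 fell by 1.45 and 1.21 on the log2 scale. HOX genes were 6 higher and 11 lower of 30.

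The same contrast in PC9 addressed whether the differences recur in another line. In PC9 replicate 1 of S100A9-inh stood apart from replicates 2 and 3. In PC9 7489 of 16169 tested genes differed (46.3%), and 7677 without that library. The difference between the lines, tested as an interaction over 18 libraries, passed for 9584 of 19076 genes (50.2%), and for 9474 without it. Of genes called in both lines that reached 5 CPM in a group of each, 650 rose in both, 990 fell in both, 1286 rose in H1650 and fell in PC9, and 1227 the reverse. Among all tested genes 32.5% rose and 31.2% fell in H1650, and 22.7% rose and 23.6% fell in PC9. The shares among genes at 5 CPM in both lines were not taken, and whether these counts differ from those of unrelated calls was not tested.

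S100A9 in PC9 was at 119, 127 and 120 CPM in BrM and at 33.9, 30.4 and 35.5 CPM under S100A9-inh, a change of -1.87 ± 0.0492, and the difference of H1650 minus PC9 was 0.76 (adjusted p = 5.59e-11). ALDH1A1 rose in both lines, by 2.55 ± 0.270 and 2.34 in PC9, and the difference did not pass (adjusted p = 0.592). ABCA12, a lipid transporter of skin, rose by 2.73 and 2.79, and EFHD1, a mitochondrial calcium-binding protein, by 2.02 and 2.15, with no difference that passed. The carboxypeptidase CPA4 fell by 2.48 and 2.68. FN1 went the opposite way in PC9, with 11992 CPM in PC9 BrM and 230 CPM under S100A9-inh, a change of -5.71, against the rise in H1650, and a difference of 7.90 (adjusted p = 5.76e-52).

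MSLN rose in PC9 from a mean of 9.21 CPM to 43.9 CPM while it fell in H1650, a difference of -7.36 (adjusted p = 1.21e-40). The cadherin CDH2 and the adhesion molecule FLRT3 rose in H1650 and fell in PC9, by -3.51 and -2.06. ANKRD1 did so too, at -2.00 in PC9. The adhesion protein CLMP, the matrix inhibitor of calcification MGP, and NCCRP1 fell in H1650 and rose in PC9, by 3.33, 2.62 and 4.25. As counts within each line, interferon genes were 20 higher and 2 lower of 31 tested in PC9, MHC class I genes 15 higher and 2 lower of 19, and cholesterol genes 4 higher and 10 lower of 24, where 22.7% of all PC9 genes tested were higher and 23.6% lower. G2/M genes were 32 higher and 1 lower of 40 in PC9. These counts were not tested against those of H1650. The interferon genes OASL, IFIT1, IFIT2 and IFIT3, which led the list in H1650, were low in PC9. Their means there were at most 5.23 CPM in BrM and under S100A9-inh, beside 284 to 453 CPM in H1650 BrM. All of them rose in PC9, so the PC9 interferon count rests in part on low levels.

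**Figure D5:**
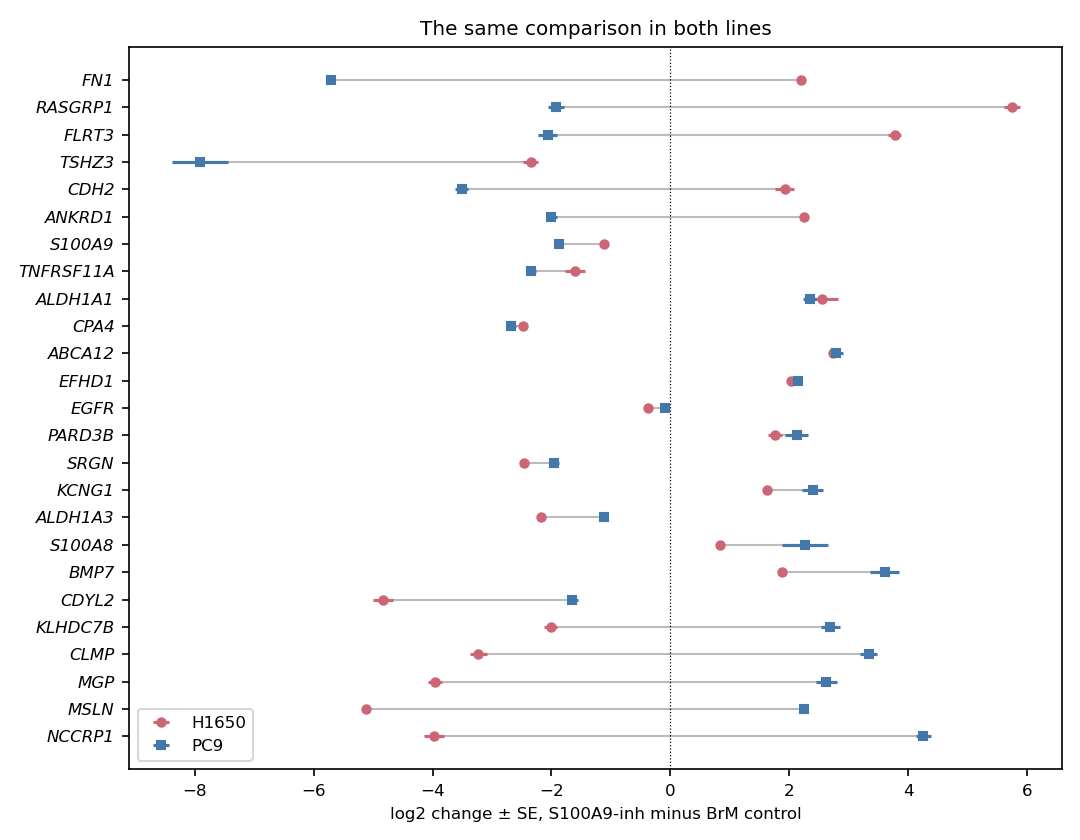
Changes of 25 genes in H1650 and PC9, S100A9-inh minus BrM control, on a log2 axis. Points are fitted changes with bars of 1 SE, n = 3 against 3; FN1 stands at 2.20 in H1650 and -5.71 in PC9, and the PC9 value of TSHZ3 rests on 1 count under S100A9-inh.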

How the data were processed

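Per the labels, libraries were TruSeq-compatible and made from poly-A selected RNA. Raw counts per gene, whole and not normalized, were deposited by the authors as 1 table of 9 libraries for each line. The genome was GRCh38, with R 4.0.1 and DESeq2 1.28.1, and STAR as the aligner, per the submitters' processing notes. For STAR's version, the counting tool, the annotation and strand use, nothing is given in the sources used here, so overlapping genes and near-identical copies are uncertain. Per the labels, libraries form 3 groups of 3, and no label says whether cultures were separate. The p-values therefore measure the spread between libraries, which may be technical. No replicates were identical. Their counts differed with a chi-square over its degrees of freedom of 1.542 to 6.51.

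Counts were fitted with edgeR 4.0.16 in R 4.3.3 (limma 3.58.1): TMM scaling, filterByExpr, a quasi-likelihood test on the 9 libraries of a line, Benjamini-Hochberg adjustment over all tested genes, threshold 0.05. Common biological coefficients of variation were 0.0335 (H1650) and 0.0433 (PC9), so small differences pass. Differences between lines are interaction contrasts over 18 libraries. SE is the absolute log2 change over the square root of F and can understate the error of large changes that rest on few counts. Folds against a group with no count set that group to 3 counts in all, and counting intervals are 95% and cover counting error only. Symbols and positions are from GENCODE 29 and a gene name table, found for 17773 tested genes. The script was tested on simulated counts of 17937 genes, 200 of them changed. It recovered 82.1% of 1.5-fold, 98.5% of 2-fold and 100% of 4-fold changes, with 2.6% false calls. The changed genes were drawn from those above 1 CPM, so recovery at lower levels was not tested. The simulated coefficient of variation was 0.06 for every gene, and the share of changed genes was far smaller than in the data.

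The comparison, the 43 lists (6 by name pattern) and the rule for named genes were chosen with earlier results of these data known. The rule takes EGFR, S100A8, S100A9, ALDH1A3 and ALDH1A1, the 10 largest changes each way at 5 CPM and the 8 at 100 CPM, from each list at most 4 members of smallest p and 2 against its direction, 5 genes each way beyond both control groups, 5 each way at BrM level, and 5 of each kind shared with PC9. Other list members named were chosen after their values were seen. Some genes that the rule takes are not reported here. Alternatives were other scalings and filters, DESeq2 1.42.0, a fold threshold, the 6 libraries alone and leaving out each replicate.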

Additional observations from a re-analysis of the deposited data

Results flagged for a closer look

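The test of the difference between the lines, H1650 change minus PC9 change on the log2 scale, passed for 206 of the 264 named genes, beside 50.2% of all genes tested. Values are given for the 20 that passed among the 25 genes compared between the lines. Among the genes named at the outset it was 0.76 for S100A9, -1.43 for S100A8, -1.06 for ALDH1A3 and -0.29 for EGFR. S100A8 was at most 1.07 CPM in the PC9 libraries of this contrast.

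Genes higher in H1650 and lower in PC9 gave 7.9 for FN1, 7.66 for RASGRP1, 5.83 for FLRT3, 5.43 for CDH2 and 4.24 for ANKRD1. Genes lower in H1650 and higher in PC9 gave -8.23 for NCCRP1, -7.36 for MSLN, -6.59 for MGP, -6.56 for CLMP and -4.7 for KLHDC7B. Genes that rose in both lines by different amounts gave -1.73 for BMP7 and -0.77 for KCNG1. Genes that fell in both gave 5.61 for TSHZ3, 0.74 for TNFRSF11A, -0.51 for SRGN and -3.18 for CDYL2. The value of TSHZ3 depends on the prior count, since it had 1 count in PC9 under S100A9-inh, and CDYL2 and MSLN lie on chromosome 16. The genes of this paragraph were chosen for changes in both lines. Most of the 264 named genes were picked by their H1650 changes, which enter this difference. The share that passed describes these choices.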

How the results depend on the processing

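Of 264 named genes, 2882 values under the alternatives kept their direction and side of the threshold, 16 lost the call and 4 gained it. The losses were in CD14, SNAP25, SYN1, HBB, MT-ND6, PCDHA3 and TYRP1. The gains were in CD3E, EPOR and HSPA6. With an absolute log2 change of at least 1, the called genes went from 11416 to 3505, 2231 higher and 1274 lower. Other settings left the count within 1.5 times, such as 10283 with DESeq2 and 10639 to 11260 when each replicate was left out. With library size alone, 6421 were higher and 4921 lower, and the median of all genes was 0.05.

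Medians near 0 changed sign. For NRF2 targets it was 0.01 with upper quartile scaling, 0.04 with library size alone and -0.07 to 0.06 when each replicate was left out, above 0 without BrM replicate 3 and without S100A9-inh replicate 2 or 3. For ribosomal proteins it was 0.01 and 0.04 with those scalings. The cause was not tested. The interferon median ranged from -1.09 to -1.02 and the squamous one from 1.3 to 1.75. Chromosome 16 kept a median of -0.63 to -0.55, an alternative added after the data were seen. No paired analysis was possible because the labels give groups no shared replicate numbers. Depth of 17.40 to 27.11 M limits genes below about 1 CPM.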
